A study of Mus musculus with 12 samples.

Results

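Elastic fibres consist of a core of cross-linked elastin and a surrounding scaffold of microfibrils, and the 10 genes described here encode the core protein and the best known proteins of that scaffold: Eln, Fbn1, Fbn2, Fbln1, Fbln2, Fbln5, Emilin1, Mfap2, Mfap4 and Mfap5. They were taken by gene symbol from a table of 32544 mouse genes, in which each of the 10 had an entry. Of the 10, 9 had enough counts to be tested. RNA was sequenced from 12 libraries in 4 groups of 3. One pair of groups were bone marrow-derived macrophages (BMDMs), grown for 7 days with 15% L929-conditioned medium and taken for RNA at 24 h after seeding, from LysMCre mice (WT) or from mice labelled PHD2cko, in which the oxygen-sensing prolyl hydroxylase PHD2 is targeted by Cre driven from the lysozyme M locus of myeloid cells. Both genotypes therefore carried the Cre. The other pair of groups were NIH/3T3 cells, an established mouse embryo fibroblast line, which were starved in 0.1% serum for 48 h by the study's methods (24 to 48 h in the labels) and then kept for 72 h in medium that WT or PHD2cko-labelled BMDMs had conditioned for 24 h, with 2% serum and 15% L929-conditioned medium in both cases; they are called fibroblasts in WT medium and fibroblasts in KO medium below. The age and sex of the mice and the oxygen level of the sequenced cultures were not given in the sources used here, nor was it stated whether the 3 libraries of a group came from separate cultures or animals, so p-values measure only the spread between these libraries.

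Fibroblasts assemble elastic fibres outside the cell. Tropoelastin, the product of Eln, coacervates at the cell surface and is laid down on microfibrils made of fibrillins (Fbn1, Fbn2), to which the microfibril-associated glycoproteins Mfap2 and Mfap5 bind. Fibulins (Fbln1, Fbln2, Fbln5) join elastin to microfibrils and to cells, and fibulin-5 also brings lysyl oxidase-like enzymes to the fibre. Emilin-1 lies at the border of elastin and microfibrils, and Mfap4 binds both tropoelastin and fibrillin. Members are known from loss of function: loss of fibulin-5 in mice gives loose skin and tortuous arteries, and mutation of fibrillin-1 causes Marfan syndrome. The comparison of the fibroblast groups asked whether factors released by macrophages labelled PHD2cko changed the expression of these genes in the cells that make matrix.

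Depth ran from 15516465 to 25199770 counts per library, and 3 counts, taken as the detection floor, stood for at most 0.205 CPM (the count scaled to the size of its library). Egln1, which encodes PHD2, was not lower in the PHD2cko-labelled BMDMs: it was 55.4 ± 0.574 CPM (SD, n = 3) in WT and 69.6 ± 1.77 CPM in the labelled knockout (log2 fold change 0.33, edgeR quasi-likelihood adjusted p = 0.00203). The gene-level counts do not show whether the deleted exon was transcribed, so the label is used here as given. The study reports that it checked the knockdown by PHD2 mRNA in BMDMs. It also reports more HIF1α protein and an active hypoxia response in its PHD2cko BMDMs. Markers of fibroblasts (10 genes, among them Col1a1) summed to 22304 to 25901 CPM in WT medium, 28469 to 29922 CPM in KO medium and 533 to 592 CPM in the BMDMs, where S100a4, which macrophages also express, made up nearly all of it. Markers of macrophages (20 genes, such as Adgre1, Csf1r and Lyz2) were detected in fibroblast libraries too: set against the mean BMDM sum they reached 0.0433%, 0.0436% and 0.0459% in WT medium, and 2.01%, 0.458% and 1.84% in KO medium. The groups did not overlap, 19 of the 20 markers were called higher, and the difference of the sums had an exact permutation p of 0.1, the smallest that 3 against 3 libraries can give. Of the fibroblast libraries, replicate 1 in WT medium stood apart. Its squared count differences from replicates 2 and 3 were 24.8 and 26.9 times those of sampling noise (chi-square over its degrees of freedom). The same ratio was 2.35 between replicates 2 and 3 in WT medium and 6.68 to 7.34 between libraries in KO medium. Each called result below is therefore also given without WT replicate 1 where that moved the value.

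Expression spanned several orders of magnitude. In fibroblasts in WT medium, CPM per kilobase of exon put Fbln2 first, at 150.2 ± 8.80 (SD, n = 3), followed by Fbln5 at 57.9 ± 2.06, Mfap5 at 30.4 ± 1.49, Emilin1 at 28.6 ± 0.479 and Fbn1 at 11.7 ± 2.72. A second tier held Mfap4, at 3.59 to 4.35, and Fbln1, at 1.55 ± 0.0306 CPM per kilobase. Eln itself was near the bottom, at 0.131 ± 0.0397, above Fbn2 at 0.0676 ± 0.0209 and Mfap2 at 0.0340 ± 0.0307. Mfap5 and Emilin1 were the closest of the well expressed pairs, and their libraries still did not overlap (29.4 to 32.1 against 28.1 to 29.1 CPM per kilobase). Eln and Fbn2 overlapped (0.0851 to 0.157 against 0.0462 to 0.0880), as did Fbn2 and Mfap2, so their order was not resolved. Per kilobase of the longest transcript instead, Eln lay at 0.179 to 0.330 and no longer overlapped Fbn2, at 0.0553 to 0.105. Transcripts of the core protein of the elastic fibre were thus few in these cells, at 19 to 25 counts per library, while those of several scaffold proteins were abundant.

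**Figure D1:**
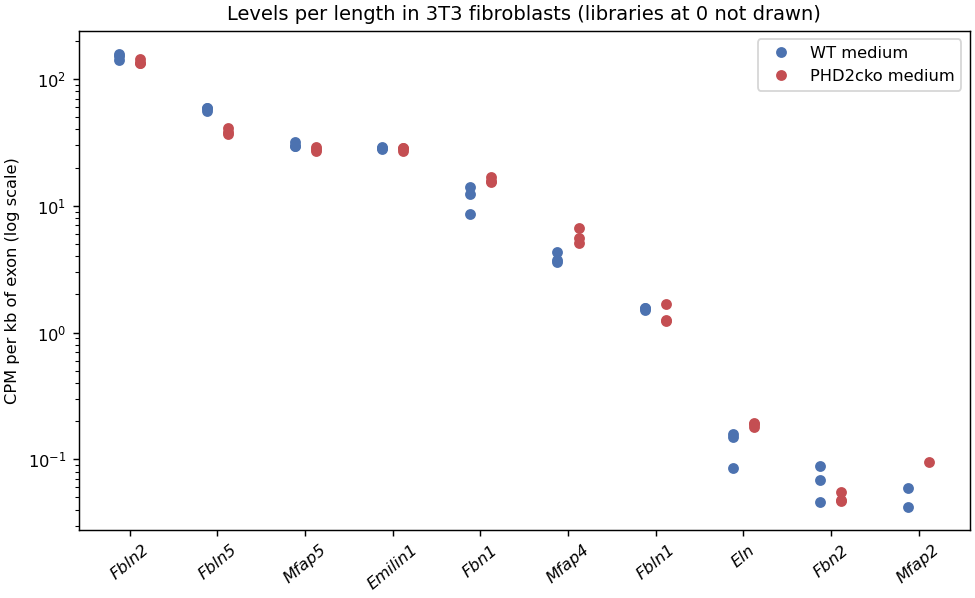
Level of each member in the 6 fibroblast libraries, as CPM per kilobase of exon on a log axis, in order of the mean in WT medium, with WT medium in blue, KO medium in red and libraries at 0 not drawn. Fbln2 lies at the top and Eln, Fbn2 and Mfap2 lie lowest, with Eln in WT medium at 0.0851 to 0.157.

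Start-site sequences are shown for the 3 members on which the results turn most and for which a RefSeq entry was at hand: Fbn1, which was higher in KO medium, Fbln5, which was lower, and Fbln2, which was the most abundant member and made no call. Each line is a 30-base window, 5′ to 3′ on the strand of the gene, build GRCm38.p6, centred on the GC box GGGCGG or its reverse complement CCGCCC, given in capitals.
Fbn1, chr2:125506606-125506635, minus strand: aggcccgggtccGGGCGGtggctggcagag
Fbln2, chr6:91212736-91212765, plus strand: aaaatcgaggccCCGCCCtgaggcgggacc
Fbln5, distal, chr12:101819323-101819352, minus strand: gctcttcctggtCCGCCCttacccccacat
Fbln5, proximal, chr12:101819150-101819179, minus strand: acgcgccccgctCCGCCCtggggaggccgg
The GC box lay 185 bases before the RefSeq start of Fbn1, 16 before that of Fbln2, and 221 and 48 before the more upstream RefSeq start of Fbln5. The window before the downstream RefSeq start of Fbln5 held no GC box. In GENCODE the windows lie within the bounds of Fbn1 and Fbln2, which start farther upstream there, and outside those of Fbln5. Of the 10 members, 6 had a promoter entry, with 9 windows of 250 bases in all, and 5 of the 9 windows held GGGCGG on either strand, beside 32.7% of 32851 RefSeq promoter windows of the same length. TATAAA, searched likewise on both strands, was in 0 of the 9 windows and in 12.4% of all. The higher and the lower member thus both carried the box before a RefSeq start, and a match of letters says nothing of binding. Eln, Fbn2, Mfap4 and Mfap5 had no entry.

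Across the fibroblast comparison, 2 of the 9 tested members were higher in KO medium (Fbn1 and Mfap4), 1 was lower (Fbln5), and 6 made no call at an adjusted p of 0.05. Over all 14285 genes tested, 8.93% were called higher and 6.75% lower, so that the members' counts were not far from the background. The log2 fold change was positive for 3 members and negative for 6, with a median of -0.12, beside a median of -0.0046 over all genes. In 5 of the 9 the 3 libraries in KO medium did not overlap the 3 in WT medium, beside 31.9% of all genes. The same 3 members were called by limma-voom and by DESeq2.

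**Figure D2:**
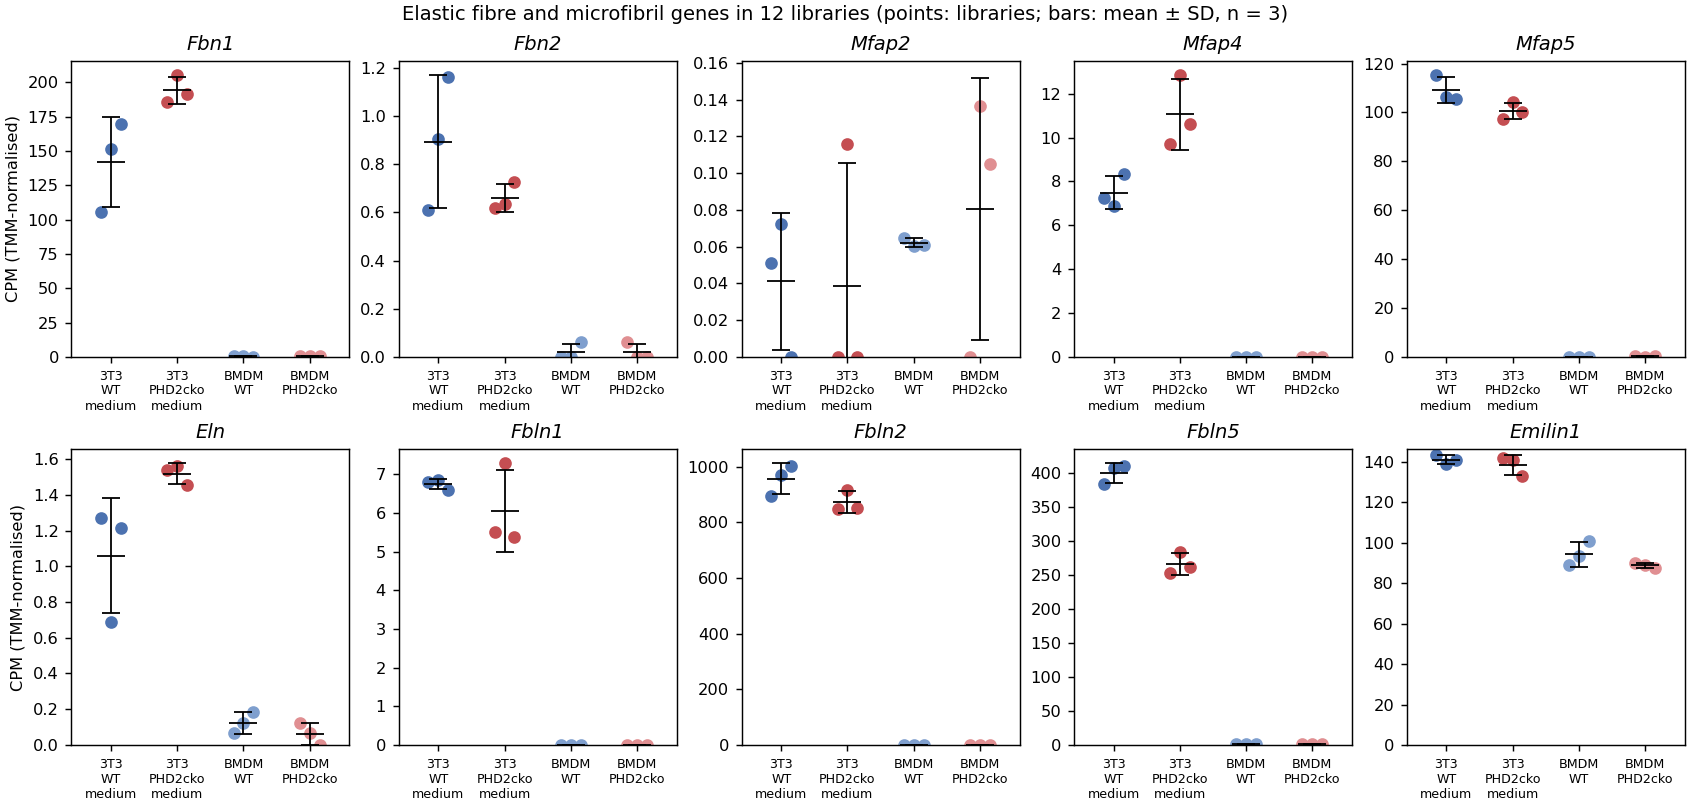
CPM of each member in the 12 libraries, 1 panel per member on a linear axis from 0, with points for libraries and bars for the mean ± SD of each group (n = 3). The fibroblast groups do not overlap for Fbn1, Mfap4 and Eln (higher in KO medium) or for Fbln5 and Mfap5 (lower), of which Eln and Mfap5 made no call.

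Fbn1 encodes fibrillin-1, the main subunit of microfibrils after birth, and lies on chr2:125300594-125507993, minus strand (ENSMUSG00000027204.13). It reached 105, 151 and 169 CPM in the 3 libraries in WT medium and 186, 205 and 192 CPM in KO medium. Every library in KO medium was above every library in WT medium, and the spread lay mainly in WT medium, where replicate 1 was lowest. The means were 142 ± 33.0 and 194 ± 10.1 CPM (SD, n = 3), a log2 fold change of 0.45 (SE 0.130, adjusted p = 0.0346). Without WT replicate 1 the log2 fold change was 0.30 (adjusted p = 0.00254), more than 1.5 times smaller but past the threshold with a lower p. The call was lost without WT replicate 2 (adjusted p = 0.0519) and without KO replicate 1, 2 or 3 (0.0663, 0.0846 and 0.0884), and in a fit of the 6 fibroblast libraries alone (0.131). Of its exon bases, 2442 also belong to Gm9913 on the opposite strand, which had at most 0.687 CPM in any fibroblast library.

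Mfap4 encodes a fibrinogen-related protein of the microfibril surface, on chr11:61485431-61488900, plus strand (ENSMUSG00000042436.12). It stood at 7.22, 6.89 and 8.35 CPM in WT medium and at 9.71, 12.8 and 10.6 CPM in KO medium. The groups did not overlap, and KO replicate 2 was highest. The means were 7.49 ± 0.765 and 11.1 ± 1.61 CPM (SD, n = 3), a log2 fold change of 0.56 (SE 0.144, adjusted p = 0.0326). The call was lost without KO replicate 2 (0.44, adjusted p = 0.0975), KO replicate 3 (adjusted p = 0.0885) or WT replicate 2 (adjusted p = 0.1000). Mfap4 shares 89 exon bases with Mapk7 on the other strand. Mapk7 had 39.2 to 41.4 CPM in WT medium and 39.6 to 40.2 CPM in KO medium (log2 fold change -0.01). In the BMDMs, where Mfap4 had 0 counts, Mapk7 had 40.6 to 45.6 CPM.

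Fbln5 encodes fibulin-5, on chr12:101746565-101819055, minus strand (ENSMUSG00000021186.9), and was the member with the smallest p. Its level was 384, 407 and 410 CPM in WT medium and 252, 285 and 262 CPM in KO medium. The lowest library in WT medium was above the highest in KO medium, and the difference was many times the spread within either group. The means fell from 400.4 ± 14.2 to 266 ± 16.5 CPM (SD, n = 3), a log2 fold change of -0.59 (SE 0.0606, adjusted p = 8.6e-05). It kept its call when each fibroblast library was left out in turn, with log2 fold changes from -0.64 to -0.55.

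Fbn1 and Fbln5 moved in opposite directions. The ratio of Fbn1 to Fbln5 CPM was 0.274, 0.372 and 0.413 in WT medium and 0.735, 0.721 and 0.731 in KO medium. The pair was chosen after its values were seen, so no test is given. Summed over the 10 members the level was 1659, 1790 and 1847 CPM in WT medium and 1544, 1674 and 1556 CPM in KO medium, ranges that overlap. Fbln2 made up 53.9% to 55.0% of that sum in every library.

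Eln, the gene of tropoelastin (chr5:134702593-134747323, minus strand), was counted 25, 19 and 23 times in WT medium and 30, 27 and 30 times in KO medium. In CPM this was 1.27, 0.689 and 1.22 against 1.54, 1.56 and 1.45, so that KO medium lay above WT medium in every library. The log2 fold change of 0.54 (SE 0.308) was close to that of Mfap4 but did not pass the test (adjusted p = 0.269), and without single libraries it ran from 0.29 to 0.73. Its lowest value came without WT replicate 2, the library with the least Eln. Mfap5, the microfibril-associated glycoprotein MAGP-2, stood at 115, 106 and 106 CPM in WT medium and 97.5, 104 and 100 CPM in KO medium. These groups did not overlap either, and the log2 fold change of -0.12 (SE 0.0568, adjusted p = 0.196) made no call. Without WT replicate 1 the value for Mfap5 was -0.06.

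The other fibulins, fibrillin-2 and emilin-1 gave overlapping groups. Fbln2, which encodes a fibulin of basement membranes and elastic tissue, had 895 to 1004 CPM in WT medium and 850 to 917 CPM in KO medium (log2 fold change -0.13, SE 0.105, adjusted p = 0.445). Fbln1 had 6.61 to 6.86 and 5.38 to 7.29 CPM (-0.16, SE 0.156, adjusted p = 0.542). Fbn2, the fibrillin of the embryo, had 0.610 to 1.16 and 0.617 to 0.727 CPM (-0.43, SE 0.354, adjusted p = 0.463). Emilin1 was the steadiest, at 139 to 143 and 133 to 142 CPM (-0.03, SE 0.0487, adjusted p = 0.760). Mfap2, which encodes MAGP-1, had 0 to 2 counts in every library and was not tested. Some log2 fold changes moved with single libraries: that of Fbn2 ran from -0.60 without WT replicate 1 to -0.22 without WT replicate 3, and that of Fbln1 from -0.31 without KO replicate 2 to -0.08 without KO replicate 3. The wide SE of Fbn2 goes with its 59 counts in WT medium and 38 in KO medium in all, whereas Emilin1 rested on 9315 and 7935.

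**Figure D3:**
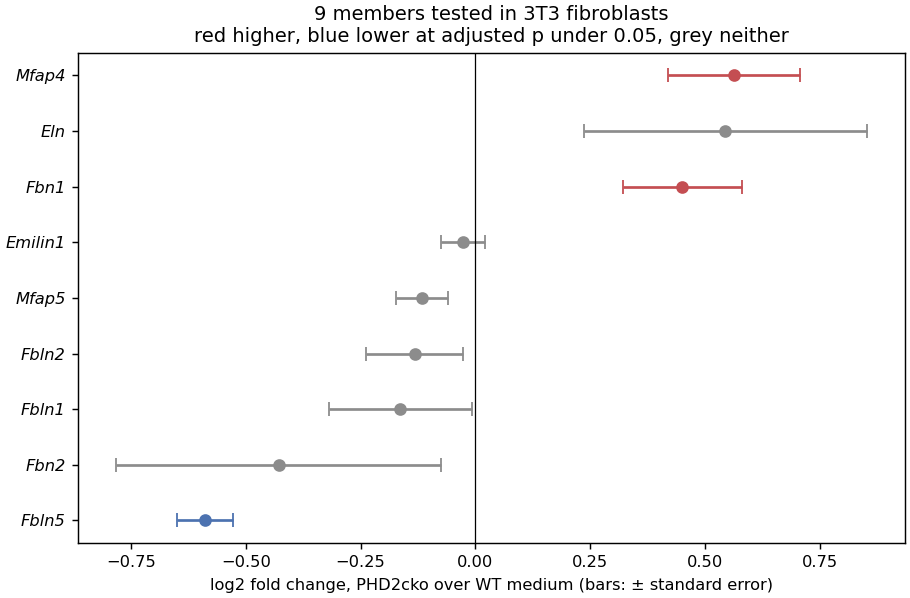
Log2 fold change of the 9 tested members between fibroblasts in KO and in WT medium, with bars of ± 1 SE. Fbn1 and Mfap4 lie to the right and Fbln5 to the left past the test, Eln lies to the right with a bar of 0.308, and Emilin1 lies next to 0.

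The macrophages themselves held few transcripts of the called members. Fbln1 and Mfap4 had 0 counts in all 6 BMDM libraries, so that fibroblasts in WT medium were at least 36.3-fold and 40.2-fold higher against a floor of 3 counts per library. Fbn1 had 1 to 7 counts per BMDM library and Eln, Fbn2, Fbln2 and Mfap5 at most 7. At the highest macrophage share of 2.01%, BMDM levels would add 0.00812 CPM of Fbn1, 0.0301 CPM of Fbln5 and 0 CPM of Mfap4, where the differences between media were 52.2, -134 and 3.56 CPM. Whether macrophage RNA in the fibroblast libraries had the levels of the sequenced BMDMs was not tested. KO replicate 2, with the lowest macrophage share in its group (0.458%), had the highest Fbn1, Mfap4 and Fbln5 of its group. This is the order of 3 libraries and was not tested. The macrophage share was higher in every library in KO medium than in any in WT medium, so its part and that of the medium label cannot be told apart. When the 2829 genes of the whole table at least 10-fold higher in BMDMs were left out, 12952 genes were tested and the same 3 calls stood. No member was among the genes left out. The members' counts were thus unchanged, and this refit cannot show whether macrophage RNA had a part in their differences. Markers of contractile cells also differed: 3 of 5 tested smooth muscle genes were lower in KO medium, namely Acta2 (smooth muscle actin, log2 fold change -1.09), Tagln (-0.95) and Smtn (-0.35), and 0 were higher, where 6.75% of all genes were lower and 8.93% higher. The 6 listed genes summed to 532 to 581 CPM in WT medium and 284 to 303 CPM in KO medium. Of 10 fibroblast markers, whose sum was higher in every library in KO medium, Col3a1 (0.87) and Pdgfra (0.46) were called higher and Thy1 (-0.27) lower. Of 5 endothelial markers, which summed to at most 49.4 CPM in WT medium and 31.1 CPM in KO medium, 2 were tested and Kdr was called higher (2.87, adjusted p = 0.0226) with overlapping groups, at a mean of 0.0594 CPM in WT and 0.471 CPM in KO medium, beside 17.5 CPM in WT and 8.64 CPM in PHD2cko-labelled BMDMs. The part of any change in the state or mix of the fibroblasts in the members' differences was not tested, and in bulk RNA fewer cells of a type and less RNA per cell cannot be told apart.

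**Figure D4:**
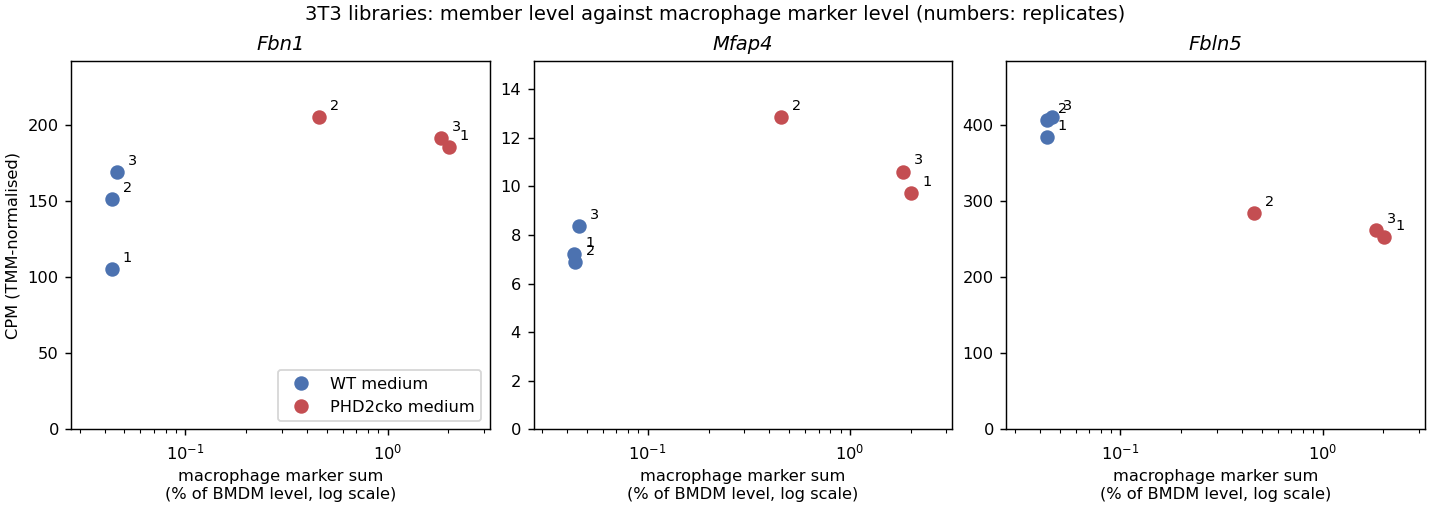
CPM of Fbn1, Mfap4 and Fbln5 in each fibroblast library (vertical axes from 0) against its macrophage marker sum as a percent of the BMDM mean (horizontal log axis), with WT medium in blue, KO medium in red and the replicate number beside each point. The 3 libraries in KO medium lie at 0.458%, 1.84% and 2.01%, and the one with the lowest share has the highest Fbn1, Mfap4 and Fbln5 of the 3.

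In the BMDMs themselves, 7 of the 9 tested members had at most 7 counts in any library and had passed the filter through the fibroblasts alone, so that only Emilin1 and Fbln5 could be compared between the labelled genotypes. Neither was called with edgeR, also at an unadjusted p of 0.05, or with limma-voom or DESeq2; of all genes, 6.73% were called with edgeR in either direction. Emilin1, the only well expressed member there, had 88.8, 93.3 and 101 CPM in WT BMDMs and 89.8, 89.1 and 87.5 CPM in PHD2cko-labelled BMDMs, which overlap (log2 fold change -0.09, SE 0.0506, adjusted p = 0.399). The mean Emilin1 level was 141 CPM in fibroblasts in WT medium and 94.3 CPM in WT BMDMs, whereas Fbln5 was 259 times higher in the fibroblasts, at 1.27 to 1.84 CPM in all BMDMs. A test of whether the label's effect differed between the cell types called neither of these members with any of the 3 tools (12.3% of all genes were called with edgeR), and says nothing of the other members. Fbln5 passed at an unadjusted p with edgeR (difference of log2 fold changes -0.52, adjusted p = 0.136). The fall of Fbln5 in fibroblasts is therefore not shown to differ from its log2 fold change of -0.07 (SE 0.190) in BMDMs, where it had 20 to 28 counts per library.

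Genes that act with the members were read from 7 lists of 49 genes, of which 39 were tested: 7 were higher in KO medium and 8 lower, where 8.93% and 6.75% of all genes were, and the median log2 fold change was 0.03. Among relatives of the fibulins, hemicentins and emilins, 2 of 4 tested genes were higher and 1 lower. Efemp1, which encodes fibulin-3, rose from 565 ± 24.3 to 708 ± 31.3 CPM (log2 fold change 0.33, SE 0.0664, adjusted p = 0.00805), opposite to Fbln5, its relative. Hmcn1, a hemicentin, rose from 0.730 to 2.16 CPM (1.54, adjusted p = 0.0126), a call lost without KO replicate 1 and in the fit of the fibroblast libraries alone. Emilin2 fell from 127 to 111 CPM (-0.20, adjusted p = 0.0213), a call lost without KO replicate 2 or 3 or WT replicate 3 and, again, with the fibroblast libraries alone. Efemp2, which encodes the fibulin-4 that elastic fibres need, was 149 and 147 CPM and made no call.

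For the enzymes and adaptors of assembly the calls are those of edgeR, with which 8.93% of all genes were called higher in KO medium and 6.75% lower. Of 6 cross-linking genes, 1 was called: Lox, the lysyl oxidase that cross-links elastin and collagen, fell from 6959 ± 331 to 4824 ± 305 CPM (-0.53, SE 0.109, adjusted p = 0.00621). Loxl1, which cross-links elastin in the adult, had 477 and 527 CPM and no call with edgeR (0.14, SE 0.107, adjusted p = 0.419), though its groups did not overlap. Of 7 tested genes of the ADAMTS and ADAMTS-like group and of processing (Furin), 1 was called: Adamtsl5 fell from 60.5 to 45.1 CPM (-0.42, SE 0.0542, adjusted p = 3.1e-04). Adamtsl4 went the other way, from 9.22 to 11.8 CPM, and was just short of a call (0.35, SE 0.111, adjusted p = 0.0521). Of the 4 latent TGF-beta binding proteins, which sit on microfibrils, Ltbp1 fell from 175 to 147 CPM (-0.25, adjusted p = 0.0289), a call that stood in 1 of 6 fits with a library left out and not with the fibroblast libraries alone. Of 4 proteoglycans that bind microfibrils or elastin, decorin (Dcn) rose from 979 to 1356 CPM (0.47, adjusted p = 0.0217), a call lost without KO replicate 3 or WT replicate 2. Of 7 elastin receptor genes, 2 were lower: Itgb5, an integrin subunit through which cells bind fibulin-5, fell from 182 to 132 CPM (-0.47, adjusted p = 6.0e-05), and Neu1, the neuraminidase of the elastin receptor complex, fell from 33.5 to 28.1 CPM (-0.25, adjusted p = 0.0148), a call lost without WT replicate 1 and with the fibroblast libraries alone.

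Of 7 tested genes for enzymes that degrade elastin, 4 were higher and 2 lower, where 8.93% and 6.75% of all genes were; 3 of the 4 higher genes were abundant in BMDMs. Mmp9 rose from 8.80, 9.07 and 10.4 CPM to 31.2, 24.8 and 37.5 CPM (1.73, SE 0.140, adjusted p = 2.6e-05). BMDMs held 0.315 and 1.41 CPM of Mmp9, and a 2.01% share of RNA like that of the PHD2cko-labelled BMDMs would add 0.0285 CPM. Such figures take any macrophage RNA in the fibroblast libraries to have the levels of the sequenced BMDMs, which was not tested. Ctss, the lysosomal cathepsin S, rose from 1.11 to 42.1 CPM (5.22, adjusted p = 1.2e-04), and Mmp12, macrophage elastase, from 5.32 to 14.7 CPM (1.45, adjusted p = 0.00135). BMDMs held 6528 CPM of Ctss and 703 CPM of Mmp12, and a 2.01% share would add 132 and 17.6 CPM, more than either difference (41.0 and 9.35 CPM). The part of macrophage RNA in the difference of these 2 genes was not tested. Ctsl, cathepsin L, the remaining higher gene and named after its values were seen, rose from 698 to 801 CPM (0.20, adjusted p = 0.0397), a difference of 104 CPM to which the same share would add 28.6 CPM. Its call was lost without KO replicate 2 or 3 or WT replicate 2 or 3 and with the fibroblast libraries alone. Mmp14 fell from 478 to 400.2 CPM (-0.26, adjusted p = 0.00671), and Mmp2, the gelatinase that Mmp14 activates, fell from 939 to 746 CPM (-0.33, adjusted p = 0.00846).

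**Figure D5:**
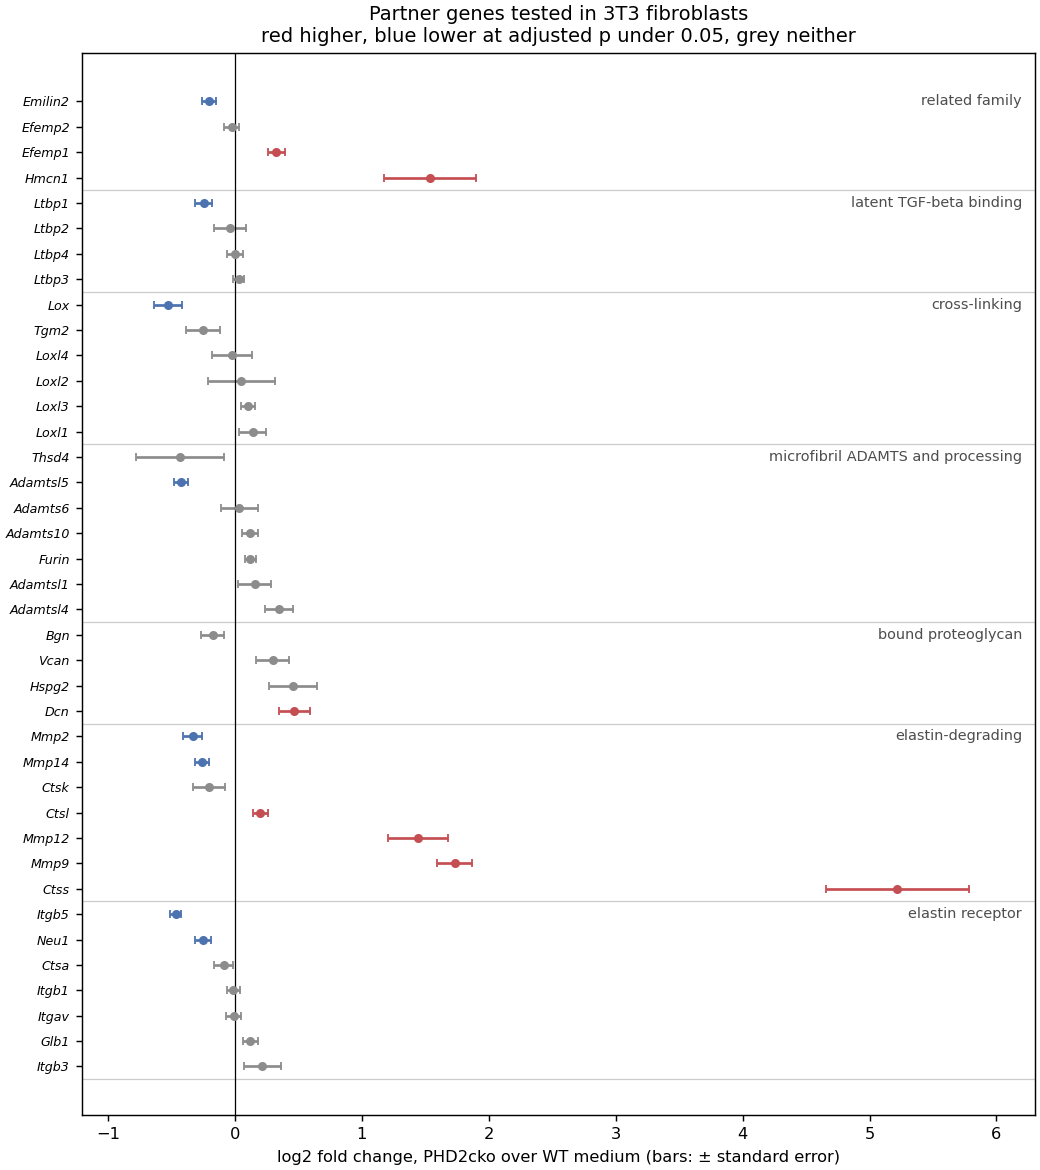
Log2 fold change between fibroblasts in KO and in WT medium for the tested genes of the 7 lists, grouped by list, with bars of ± 1 SE, genes called higher in red and lower in blue. Ctss lies farthest to the right, followed by Mmp9, Hmcn1 and Mmp12, and Lox, Itgb5 and Adamtsl5 are the lowest of the called genes.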

How the data were processed

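RNA was sequenced from 12 mouse libraries in 4 groups of 3, named from the sample labels. The deposited values are estimated counts per gene, which the authors made with Kallisto on GRCm38 (versions not given in the sources used here); they are whole numbers and not normalised, and whether counting used strand is not given. Here 14285 of 32544 genes passed filterByExpr (18259 left out), libraries were scaled by TMM, and all 4 groups were fitted together with edgeR 4.0.16 (quasi-likelihood, two-sided, Benjamini-Hochberg over all genes kept, threshold 0.05) in R 4.3.3. The study's limma-voom (limma 3.58.1) and DESeq2 1.42.0 were alternatives, beside other filters and size factors, left-out libraries and a replicate block. The SE was taken from the log2 fold change and the F statistic. The marker sum was tested by an exact permutation test. CPM uses the TMM-scaled library size, and lengths are union exons of GENCODE M21. The detection floor allows for counting error alone. The fit was tested on simulated data: 88 of 100 genes changed 2-fold and 78 of 100 changed 1.5-fold were recovered in the fibroblast comparison of 14285 genes. The changed genes were drawn from those above a minimum level in WT medium, which Fbn2 was below. These rates therefore say nothing of members near the detection floor. All 10 members are named, and of each list of partner genes the called genes with the smallest p, at most 3 per direction, with Ctsl, markers and uncalled genes added after their values were seen. The members and all lists were chosen with earlier results of these data known. Protein sequences were not used here. A further allele that both groups of mice share is not reported here.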

Additional observations from a re-analysis of the deposited data

Results flagged for a closer look

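For 11 of the 39 tested genes that act with the members, the effect of the PHD2cko label differed between fibroblasts and BMDMs in the edgeR interaction test, where 12.3% of all genes did. The values are differences of log2 fold changes, fibroblasts minus BMDMs. Among matrix proteoglycans and metalloproteases the differences were: versican (Vcan) 1.49 (adjusted p = 9.3e-04), biglycan (Bgn) -1.57 (adjusted p = 0.00292), Mmp2 -1.23 (adjusted p = 0.00650) and Mmp14 0.88 (adjusted p = 1.3e-04). Vcan was 0.30 in fibroblasts and -1.19 in BMDMs, Bgn -0.17 and 1.40, and Mmp2 -0.33 and 0.90. BMDM levels of Bgn and Mmp2 were low, with means over all 6 libraries of 1.12 and 0.982 CPM, and Mmp2 in BMDMs (adjusted p = 0.0449) kept its call in 1 of 6 fits with a library left out. Mmp14 fell in both cell types, by 0.26 in fibroblasts and by 1.14 in BMDMs.

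Among genes of processing and assembly the differences were 1.01 for Adamtsl4 (adjusted p = 0.00117), -0.43 for Adamtsl5 (adjusted p = 0.00474), 0.30 for Furin (adjusted p = 0.00584), 0.29 for Adamts10 (adjusted p = 0.0463) and -0.64 for Efemp2 (adjusted p = 0.00756). Adamts10 lost its call in 9 of 12 fits with a library left out. Itgb5 differed by -0.45 (adjusted p = 5.4e-04). Ctss differed by 5.21 (adjusted p = 4.2e-04), with macrophage markers at 0.458% to 2.01% of the BMDM level in KO medium, and its adjusted p was 0.0501 with limma-voom.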

How the results depend on the processing

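Fbln5 kept its direction and its call under every alternative run. For the fibroblast comparison the number of genes called was 2240 with all 12 libraries, 912 with the 6 fibroblast libraries alone, 1470 without genes of macrophage type (728 higher and 742 lower), and 1260 to 2757 with 1 library left out. For BMDMs it was 961, then 2534 with the 6 BMDM libraries alone and 527 to 664 with 1 left out; for the difference of effects it was 1756, then 1272 to 2316. The number of members called in fibroblasts was 3, and 1 to 3 with 1 library left out; it was 1 without KO replicate 2, KO replicate 3 or WT replicate 2, where Fbln5 alone stood. It was 2 in the 6 libraries alone, where Fbn1 lost its call (0.46, adjusted p = 0.131). Equal replicate numbers did not pair the samples (correlations of deviations 0.0487, 0.0524 and -0.103 in fibroblasts). With a replicate block the genes called in fibroblasts were 1859 and the members 2, since Mfap4 lost its call (0.56, adjusted p = 0.0528). Partner genes called were 15, and 11 to 17 with 1 library left out. They were 18 with limma-voom, 19 with DESeq2 and 10 with the 6 fibroblast libraries alone. The macrophage marker difference of 1.39 percentage points ran from 1.10 to 1.88 with 1 library left out. With the length of the longest transcript, CPM per kilobase in WT medium moved to 0.275 for Eln, 1.85 for Fbln1, 199.9 for Fbln2, 68.7 for Fbln5, 36.6 for Emilin1 and 43.8 for Mfap5, in the same order. Settings for the partner genes, and for the members in the difference of effects, were added after the data were seen. No called result changed direction; of 48 members and partner genes in fibroblasts, 9 uncalled ones took both signs, between -0.16 and 0.19, Emilin1 (-0.04 to 0.0055) and Efemp2 (-0.06 to 0.05) among them, as did 11 in BMDMs and 9 in the difference of effects, also uncalled. The cause of these changes was not tested. Eln, Fbn2 and Mfap2 had at most 30 counts per library.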

Other observations

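In BMDMs, 7 of the 39 tested partner genes were called higher in the PHD2cko-labelled cells and 4 lower, where 483 and 478 of 14285 genes were (6.73% in all). Higher were the fibulin-4 gene Efemp2 (log2 fold change 0.61), Ltbp3 (0.23), Bgn (1.40), Mmp2 (0.90), Mmp9 (2.16), Mmp12 (0.72) and Ctsl (0.32). Lower were Adamtsl4 (-0.66), Furin (-0.18), Vcan (-1.19) and Mmp14 (-1.14). Mmp12, macrophage elastase, had 533 ± 27.0 CPM in WT and 874 ± 32.3 CPM in labelled BMDMs (SD, n = 3), and its call was lost in all 6 fits with a BMDM library left out.

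Over the 12 libraries, the genes most like Fbn1 among 9376 genes of at least 10 CPM in fibroblasts were Tenm4, Igfbp5 and Wisp1, with root-mean-square differences of centred log2 CPM of 0.13, 0.17 and 0.17. For Eln they were Cnbp, Metap1 and Sepw1, at 0.11, 0.12 and 0.12; Eln is near 1 CPM, where the 1 CPM added before taking logs flattens its pattern. The libraries share cell type and depth, so no test is given.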
